A study of Mus musculus with 58 samples.

Results

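The transcripts of 9 mouse genes were followed: the keratins Krt8, Krt18 and Krt19 and the transcription factors Gata3, Gata2, Hand1, Eomes, Tfap2a and Tfap2c. They were chosen by name, as genes of the trophectoderm and of simple epithelia, with the reads of all groups already known, and are 9 of the 20177 genes in the deposited tables. No threshold entered the choice. Because those reads were known, the values, fold changes and calls of the 9 genes are given below as a description, without p-values. Tests are reported only for genes of marker lists that hold none of them. These lists were also chosen with earlier results of these data known, and genes named from them by their mean level in the retinoic acid groups. Their adjusted p-values are therefore a description too.

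All samples came from E14 mouse embryonic stem (mES) cells of the 129/Ola strain, maintained in serum with LIF before any RA. H3K4me3 is the trimethyl mark on histone H3 lysine 4 at active promoters, and DPY30 and RBBP5 are core subunits of the enzymes that write it. DPY30–mAID cells carry a degron on DPY30 that auxin triggers, RBBP5–FKBP cells carry a dTAG-13-triggered degron on RBBP5, and the Kdm5a/b-dKO line is DPY30–mAID with both H3K4me3 demethylase genes Kdm5a and Kdm5b knocked out. In SLAM-seq, cells received 100 µM 4-thiouridine (4SU) for 60 min, so that T>C conversions mark newly made RNA. DPY30–mAID and RBBP5–FKBP cells were sampled after 0, 2, 8 and 24 h of ligand (3 libraries a group). Kdm5a/b-dKO cells were sampled after 0, 2, 4, 8, 24 and 48 h (2 libraries a group). The methods name 2 dKO clones, but the labels do not tie libraries to clones. In the differentiation course, DPY30–mAID cells received 1 µM retinoic acid (RA) without LIF, with DMSO for 0 h, 8 h and 1, 2, 4 and 6 days or with auxin from 8 h to day 6, and were profiled by Quant-seq without 4SU (2 libraries a group). Both libraries of DMSO day 6 held identical values and were counted as 1 sample, which was assumed to vary like the others. Both arms were compared with the same DMSO 0 h libraries, and the labels do not say how long auxin preceded RA.

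Trophectoderm is the outer, transporting epithelium of the blastocyst and the source of the placenta's trophoblast. TFAP2C, GATA3, EOMES and CDX2 sit in the transcription factor network that sets it apart from the pluripotent inner cell mass. Keratins 8 and 18 pair into the first intermediate filaments of simple, one-layered epithelia, including trophectoderm and the extraembryonic endoderm that RA induces in embryonal cells. Keratin 19 is a further type I partner of keratin 8. GATA2, GATA3 and HAND1 also act outside the trophoblast, in blood, neural and mesodermal lineages, and TFAP2A in surface ectoderm and neural crest.

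Reads ended in the 3′ UTR of each gene, given here on GRCm38. Krt8 was counted at chr15:101996711-101996939 on the minus strand and Krt18 at chr15:102031962-102032026 on the plus strand, so that these genes are neighbours. Krt19 was counted at chr11:100140810-100140912 and Gata3 at chr2:9857078-9858369, both on the minus strand. Gata2 was counted at chr6:88205495-88207032 on the plus strand, Hand1 at chr11:57828705-57829598 on the minus strand and Tfap2a at chr13:40715675-40717114 on the minus strand. Tfap2c was counted at chr2:172557377-172558622 on the plus strand. Eomes had 2 intervals, of which chr9:118485013-118486132 on the plus strand held 97.2% of its SLAM-seq reads.

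The promoters of 4 of these genes are printed. Krt8, Krt18 and Gata3 reached high levels in both arms of the RA course, and Eomes was called lower with auxin on days 2 and 4. The auxin libraries of Krt8, Krt18 and Gata3 also lay below DMSO on days 2 and 6, so the 4 genes are not a contrast in direction. Each sequence is the 250 bases before the RefSeq start site (GRCm38.p6), 5′ to 3′. Capitals mark matches, on either strand, to the TFAP2 motif GCCNNNGGC, the GATA motif AGATAA or the TEAD motif GGAATG. No matches overlapped.
Krt8, chr15:102004343-102004592, minus strand: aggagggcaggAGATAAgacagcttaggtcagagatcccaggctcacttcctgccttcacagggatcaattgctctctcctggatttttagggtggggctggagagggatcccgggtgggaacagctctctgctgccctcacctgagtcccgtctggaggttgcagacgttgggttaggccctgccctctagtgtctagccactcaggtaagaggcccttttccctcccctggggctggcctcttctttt
Krt18, chr15:102027966-102028215, plus strand: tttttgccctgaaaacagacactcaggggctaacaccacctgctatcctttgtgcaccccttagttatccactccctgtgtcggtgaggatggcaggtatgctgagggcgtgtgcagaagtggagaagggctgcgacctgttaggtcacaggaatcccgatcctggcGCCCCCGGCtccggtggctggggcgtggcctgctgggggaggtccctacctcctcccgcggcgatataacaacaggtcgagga
Gata3, chr2:9878601-9878850, minus strand: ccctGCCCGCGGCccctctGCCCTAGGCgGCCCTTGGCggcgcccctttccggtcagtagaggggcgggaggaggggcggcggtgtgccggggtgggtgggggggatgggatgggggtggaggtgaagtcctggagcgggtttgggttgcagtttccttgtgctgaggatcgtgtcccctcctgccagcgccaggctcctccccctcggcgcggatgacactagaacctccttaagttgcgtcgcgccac
Eomes, chr9:118477939-118478188, plus strand: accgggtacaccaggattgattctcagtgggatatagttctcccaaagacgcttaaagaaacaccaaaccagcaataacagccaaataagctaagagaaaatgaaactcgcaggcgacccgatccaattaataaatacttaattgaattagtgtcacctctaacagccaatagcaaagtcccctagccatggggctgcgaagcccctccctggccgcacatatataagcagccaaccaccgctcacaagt

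Over the full RefSeq window of 300 bases (250 before to 50 after the start), Gata3 held 3 matches to the TFAP2 letters and Krt18 held 1. Of all 32851 promoter windows, 16.6% held at least 1. Krt8 held 1 match to the GATA letters, which were present in 11.2% of windows, and none of the 4 held the TEAD letters, which were present in 14.7%. Eomes held no match to any of the 3 in this window. Promoters also differed in CpG dinucleotides, at which H3K4me3 is known to concentrate. Gata3 had 22 CpGs, Krt18 17, Eomes 10 and Krt8 6 in 300 bases, against a median of 7 over all windows. Gata2 had 32 and 29 at its 2 start sites and Tfap2a 11 and 15.

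Libraries held 1264241 to 2543632 counted reads in Quant-seq, 2013350 to 2806821 in DPY30–mAID SLAM-seq, 1721185 to 2852331 in RBBP5–FKBP and 5931269 to 7792404 in Kdm5a/b-dKO. Quant-seq and Kdm5a/b-dKO reads covered 11.2 to 11.9 T bases each and the other SLAM-seq reads 17.97 to 19.01, so read length differed between experiments. In Kdm5a/b-dKO libraries Kdm5a was detected at 26.0 to 40.7 and Kdm5b at 109 to 151 reads per 1000000, against 61.1 to 107 and 389 to 946 in DPY30–mAID. These 3′ reads may lie outside the edited stretch and do not check the knockouts, and the degrons act on protein. The study calls its SLAM-seq libraries biological replicates. The sources used here do not say whether the Quant-seq replicates were separate cultures, so their errors may reflect technical spread only.

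The largest movements of the 9 genes were seen in RA. Levels are reads per 1000000 counted reads with TMM-scaled library sizes (CPM), and fold changes are log2-transformed and given with their SE. A gene was called where edgeR's quasi-likelihood test gave an adjusted p below 0.05 and the log2 fold change passed 1 in either direction. All 9 genes passed the low-count filter (a mean of 10 reads in at least 1 group). Since several passed it through the late groups alone, the numbers of them called support nothing.

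In DMSO, the keratins first fell or stayed low and then climbed. Krt8 stood at 34.9 and 31.0 CPM at 0 h, 18.8 and 14.3 at 8 h, and 10.8 and 12.1 on day 1. It then reached 163 and 199 on day 2, 379 and 388 on day 4, and 1302 in the day 6 sample. Every day 1 library thus lay below every 0 h library, and every later library above. Against 0 h its fold change was −1.0002 ± 0.24 at 8 h and −1.52 ± 0.27 on day 1, and the later values were 2.46 ± 0.17, 3.54 ± 0.16 and 5.31 ± 0.17. The 8 h call was lost under several alternatives, among them leaving out 0 h replicate 1 (−0.92) or 8 h replicate 2 (−0.81).

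Krt18, the filament partner of keratin 8, had too few reads at 8 h to be compared with that fall. It stood at 1.45 and 1.27 CPM at 0 h and at 1.18 and 0.956 at 8 h, where the ratio of 4 reads to 6 was 0.777 with a 95% exact counting interval of 0.161 to 3.28. It was at 5.11 and 4.02 CPM on day 1, then at 46.2 and 51.0 on day 2, 59.4 and 67.1 on day 4 and 247 on day 6. Its fold change was 1.70 ± 0.62 on day 1, a call lost without either 0 h library or day 1 replicate 1, then 5.10 ± 0.37 on day 2 and 7.44 ± 0.31 on day 6. The summed reads gave a ratio to 0 h of 182 on day 6 (interval 83.1 to 498).

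Krt19 came later. It had 3 reads in all at 0 h, 12 on day 2, 30 on day 4 and 179 in the single day 6 sample. The ratio to 0 h was 4.42 (interval 1.19 to 24.4) on day 2, 9.84 (3.06 to 50.4) on day 4 and 109 (36.7 to 533) on day 6. Counting intervals cover counting error only.

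**Figure D1:**
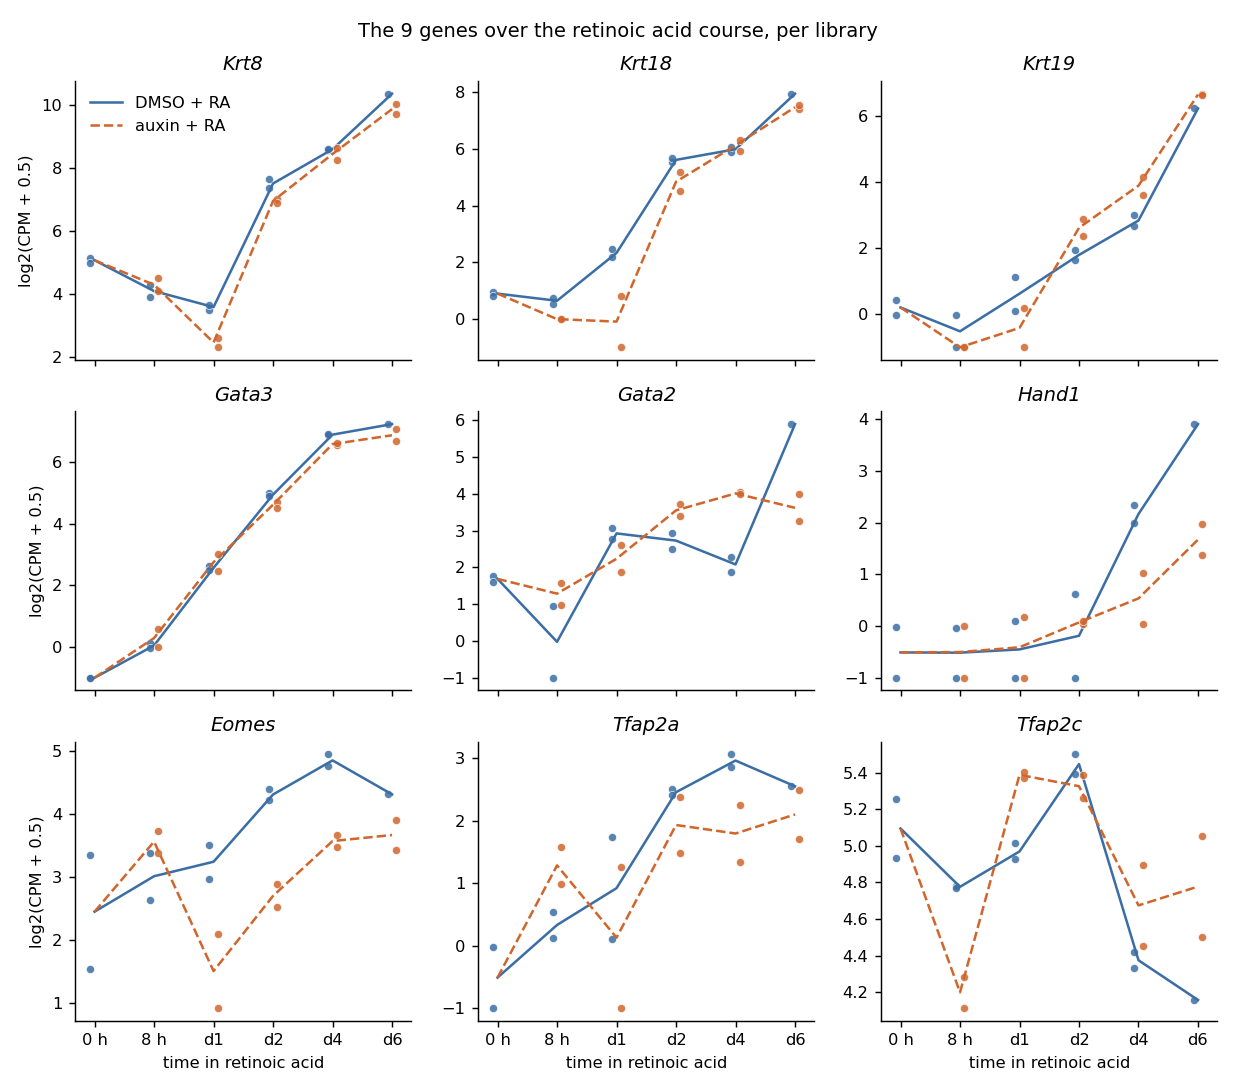
Each panel plots 1 gene as log2(CPM + 0.5) against time in RA (0 h, 8 h and days 1, 2, 4 and 6, evenly spaced), with a point for each library and a line through the means of the DMSO (blue, solid) and auxin (orange, dashed) groups. The auxin line starts from the DMSO 0 h libraries, y axes differ between panels, and DMSO day 6 is 1 sample. Krt8, Krt18, Krt19 and Gata3 climbed in both arms, whereas Tfap2c stayed between 16.8 and 44.7 CPM.

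Gata3, a zinc finger factor of trophectoderm and other lineages, was at 0 reads in both 0 h libraries. It had 2 reads in all at 8 h and 19 on day 1, and stood at 31.2 and 29.3 CPM on day 2, 116 and 120 on day 4 and 150 on day 6. Set against the limit of 3 reads over the 0 h group, it was at least 8.00-fold higher on day 1, at least 174-fold on day 4 and at least 220-fold on day 6. Its mean level was higher at each later time.

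Gata2, its paralogue, moved in a different way. It was at 2.91 and 2.54 CPM at 0 h, 7.95 and 6.32 on day 1, 5.19 and 7.21 on day 2, 4.37 and 3.18 on day 4 and 59.1 on day 6. The day 6 level thus rests on 1 sample. Gata2 was called on day 1 (1.37 ± 0.50) and on day 6 (4.41 ± 0.39), with 1.18 ± 0.50 on day 2 and 0.47 ± 0.55 on day 4. The day 1 call was lost with DESeq2 and without 0 h replicate 2 or day 1 replicate 1.

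Hand1, a bHLH factor of trophoblast giant cells and of heart and lateral mesoderm, had 1 read at 0 h, 18 on day 4 and 35 on day 6. The ratio to 0 h was 17.7 (interval 2.80 to 738) on day 4 and 63.9 (10.7 to 2596) on day 6. Eomes, a T-box factor of trophoblast and of mesendoderm, was at 2.42 and 9.75 CPM at 0 h and at 26.6 and 30.4 on day 4, when its fold change was 2.17 ± 0.36. Its 0 h libraries differed by more than most pairs, and it was 19.4 CPM on day 6, a call (1.62 ± 0.44) lost without 0 h replicate 1 (0.99). Tfap2a, an AP-2 factor of surface ectoderm, had 1 read at 0 h and 33 on day 4, a ratio of 32.5 (interval 5.43 to 1321).

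Tfap2c, the AP-2 factor of early trophectoderm that mES cells also express, ran against the rest. It was at 30.0 and 37.7 CPM at 0 h, 41.5 and 44.7 on day 2, 19.6 and 20.9 on day 4 and 17.4 on day 6, when its fold change was −0.97 ± 0.27. It was not called at any time of the DMSO course, but was on day 6 without multi-mapped reads (−1.17) or without 0 h replicate 1 (−1.12).

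Over the 5 times of the DMSO course, the numbers of the 9 genes called were 1, 4, 6, 7 and 8. Of all genes tested, 6.42%, 29.4%, 26.4%, 30.5% and 37.0% were called at the same times. The contrasts were among those that chose the genes, so nothing is read from the difference. Most Krt8 reads mapped to several places (91.7% at 0 h and 88.4% on DMSO day 6). Near-identical Krt8 pseudogenes are known, so that its levels are uncertain. Without multi-mapped reads the 8 h and day 1 calls of Krt8 were lost, although its fold changes were −0.998 and −1.12, and those of days 2, 4 and 6 were kept.

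Other markers moved over the same days. All 17 genes of the extraembryonic endoderm list (Gata4, Gata6, Sox17, laminins, type IV collagens and others) were called higher on DMSO days 4 and 6, when 19.9% and 22.4% of all genes were called higher and 10.5% and 14.6% lower. Only 6 of the 17 passed the low-count filter at 0 h, and the others passed through later groups in which they were high. Its summed level went from 486 to 514 CPM at 0 h to 8346 to 8502 on day 4 and 14518 on day 6. Col4a1, a basement membrane collagen that passed at 0 h, rose by 7.42 ± 0.17 on day 6 (adjusted p = 1.9e-22). Dab2, an endocytic adaptor of that tissue, and Gata4 did not pass at 0 h, and their fold changes of 8.75 ± 0.19 and 8.11 ± 0.46 are a description. The 6 tested mesoderm genes, the homeobox genes Msx1 and Msx2 among them, were likewise called higher on days 4 and 6, and none of them passed the filter at 0 h. Of the 10 pluripotency genes 9 were called lower on day 6, and Pou5f1, which encodes OCT4, fell by 1.95 ± 0.15 (adjusted p = 1.9e-11). In these bulk samples fewer cells of a type and less RNA per cell cannot be told apart, and the part of these lineages in the keratin and Gata3 levels was not tested.

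Trophoblast genes moved both ways. Of the 18 listed genes 13 passed the filter, 10 of them at 0 h, and 6 were called higher and 3 lower on DMSO day 6, when 22.4% of all genes were called higher and 14.6% lower. The summed level of the list was 1742 to 1941 CPM at 0 h, 592 to 664 on day 1, 2031 to 2094 on day 4 and 1941 on day 6, when 4 of its genes were at 0. Prl3d1, Prl2c2 and Tpbpa, which mark giant cells and spongiotrophoblast, had no read in any RA library. Elf5, a trophoblast stem cell factor, did not exceed 1.24 CPM. Cdx2, the homeobox factor that specifies trophectoderm and is also a caudal gene that RA acts on, stood between 0.437 and 4.54 CPM in all DMSO libraries. Peg10, an imprinted placental gene, was higher on day 4 (2.16 ± 0.10, adjusted p = 1.0e-15), whereas Phlda2, another imprinted placental gene, was lower (−4.18 ± 0.15, adjusted p = 6.6e-18). Klf5, which both trophectoderm and mES cells express, was lower on day 6 (−1.24 ± 0.14, adjusted p = 4.1e-08). The 9 genes are therefore named here by gene and not as a cell type.

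Of 29 tested genes of the simple epithelium and junction list, 14 were called higher and 2 lower on DMSO day 2, 14 higher and 1 lower on day 4, and 16 higher and 13 in neither direction on day 6. On day 2, 16.2% of all genes were called higher and 10.1% lower. Of the 29, 16 passed the filter at 0 h. F11r, a tight junction adhesion molecule, rose by 3.53 ± 0.20 on day 6 (adjusted p = 6.1e-14), and Krt7, a simple epithelial type II keratin, went from 0 in both 0 h libraries to 21 reads (8.68 CPM) in the day 6 sample. Cdh1 (E-cadherin), already at 385 to 437 CPM at 0 h, changed by 0.58 on day 6, and Epcam by −0.66, and neither was called.

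With auxin, Krt8, Krt18, Krt19 and Gata3 also climbed. Krt8 had 33 and 44 reads at 8 h and 7 and 8 on day 1 (4.41 and 5.57 CPM). It then stood at 127 and 118 CPM on day 2, 305 and 391 on day 4 and 827 and 1041 on day 6. Krt18 reached 168 and 188 CPM and Krt19 101 and 97.3 on day 6. Gata3 reached 133 and 101 CPM, at least 175-fold above the limit of 3 reads over the 0 h group. The ratios to 0 h of 4 other genes are given beside those with DMSO. The ratio was 0.952 (interval 0.519 to 1.73) against 3.08 (1.97 to 4.92) for Eomes on day 2. For Hand1 it was 12.4 (1.72 to 546) against 63.9 (10.7 to 2596) on day 6, and for Tfap2a 13.8 (2.04 to 591) against 32.5 (5.43 to 1321) on day 4, with 1 read at 0 h for each and intervals that overlapped. For Gata2 it was 4.14 (2.13 to 8.65) against 2.30 (1.11 to 5.03) on day 2, 5.76 (3.07 to 11.8) against 1.39 (0.627 to 3.20) on day 4 and 4.61 (2.37 to 9.65) against 21.8 (12.1 to 43.1) on day 6. Against DMSO 0 h, 2, 6, 6 and 7 of the 9 genes were called on days 1, 2, 4 and 6, where 25.6%, 26.5%, 34.2% and 36.4% of all genes were called. At 8 h edgeR called 0 of them (7.21% of all genes), as did DESeq2, with 3 at an unadjusted p below 0.05. The arms share their 0 h libraries, so the similarity of these values was not tested.

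Auxin and DMSO were compared directly at each time. At 8 h edgeR and DESeq2 called 0 of the 9 genes, with 0 also at an unadjusted p below 0.05 (0.158% of all genes called). EdgeR called Krt18 on day 1 (2.39% of all genes called) and Eomes on day 2 (4.81%). It called Gata2, Krt19 and Eomes on day 4 (7.25%) and Gata2 and Hand1 on day 6 (10.1%). DESeq2 called 0, 1, 1 and 1 of them on these days.

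Krt8 and Krt18 were not called between the arms from day 2 on. On day 1 Krt8 had 15 reads with auxin and 40 with DMSO, a ratio of 0.434 (interval 0.223 to 0.804). Its day 1 fold change of −1.19 was called at an unadjusted p below 0.05 but not at an adjusted one. Krt8 with auxin differed from DMSO by −0.56 ± 0.14 on day 2, −0.14 ± 0.12 on day 4 and −0.48 ± 0.14 on day 6. Krt18 differed by −0.73 ± 0.21, 0.15 ± 0.18 and −0.48 ± 0.18. On days 2 and 6 the auxin libraries lay below DMSO for both genes, and on day 2 the ratio of summed reads was 0.675 (interval 0.599 to 0.761) for Krt8 and 0.602 (0.471 to 0.766) for Krt18. On day 1, when Krt18 had 2 reads in all with auxin and 16 with DMSO, the ratio was 0.145 (interval 0.0162 to 0.616). That call was lost with DESeq2 (−2.80), without multi-mapped reads (−2.62) and without any one of the 4 libraries (−6.24 to −1.84).

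Krt19 went the other way. It was at 11.7 and 17.3 CPM with auxin and 7.42 and 5.90 with DMSO on day 4, a difference of 1.12 ± 0.34. The 4 libraries did not overlap, but the call was lost with DESeq2 and without 1 library in 3 of 4 cases (auxin replicate 2, DMSO replicate 1 or DMSO replicate 2). On day 6 it was at 101 and 97.3 against 73.9 CPM (0.42 ± 0.25).

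The extraembryonic endoderm list was lower with auxin over the same days. Of its 17 genes, 6 were called lower on day 2, 13 on day 4 and 16 on day 6, and none higher, where 1.88%, 2.59% and 5.3% of all genes were called lower. The median differences were −0.52, −1.58 and −2.26, against medians of 0.04, 0.00 and 0.03 over all genes. Gata4 and Gata6 are also the tested GATA paralogues. The list's summed level was 2993 to 3204 CPM with auxin on day 6 and 14518 with DMSO, while the 9 genes summed to 1285 to 1488 and 1889. Dab2 was lower by −2.64 ± 0.12 (adjusted p = 8.6e-15) and Gata4 by −2.26 ± 0.27 (adjusted p = 8.2e-07). Whether the list and the keratins differed from each other in this respect was not tested.

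**Figure D2:**
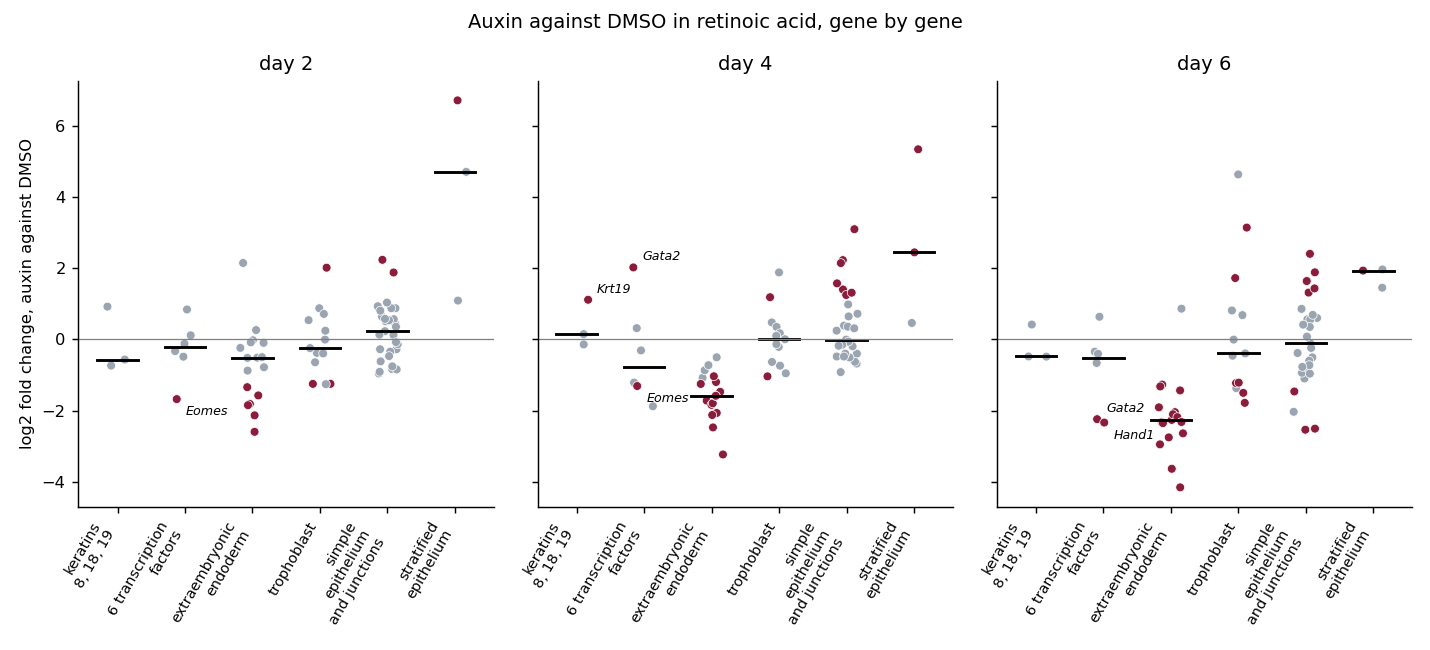
Log2 fold changes of auxin against DMSO on days 2, 4 and 6 of RA, with a point for each gene, a black bar at the median of the group, and dark red for called genes. On day 6 the 17 extraembryonic endoderm genes had a median of −2.26, whereas Krt8 and Krt18 were at −0.48 and Krt19 at 0.42, and Krt15 of the stratified list was above 0.

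Some keratins outside the 9 genes were higher with auxin. Krt17 was not called, at 0.47 on day 4 (adjusted p = 0.75) and 1.46 on day 6 (adjusted p = 0.48). Krt14, singled out after its values were seen, was at 0 reads in both arms on days 2, 4 and 6. Krt7 was higher by 2.15 ± 0.54 on day 4 (adjusted p = 0.0061) and by 1.32 ± 0.46 on day 6 (adjusted p = 0.047). Krt15, a type I keratin of stratified epithelia, was at 50.1 to 58.4 CPM with auxin and 14.0 with DMSO on day 6 (1.94 ± 0.40, adjusted p = 0.0020). Krt5, the basal keratin of stratified epithelia, was at 8.51 to 14.8 CPM with auxin and 0 to 0.437 with DMSO on day 4, and is given as a level because it passed the low-count filter through auxin groups only. Of the 29 epithelial and junction genes 7 were called higher and none lower with auxin on day 4, and 5 higher and 3 lower on day 6, where 4.66% and 4.77% of all genes were called higher. Among the 29, 2 passed the filter through auxin groups only and 3 through DMSO groups only, so that these counts are a description. Cdx2, which passed through auxin groups only, was at 14.9 to 17.8 CPM with auxin and 3.64 to 4.33 with DMSO on day 2, and at 17.1 to 20.8 and 2.07 on day 6.

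Gata3 differed from DMSO by −0.31 ± 0.15 on day 4 and −0.34 ± 0.17 on day 6. The arms did not overlap on day 4, with 93.1 and 97.4 CPM against 116 and 120. The difference in Gata2 changed sign between days. It was at 16.0 and 15.3 CPM with auxin against 4.37 and 3.18 with DMSO on day 4 (2.03 ± 0.40), and at 15.4 and 9.03 against 59.1 on day 6 (−2.24 ± 0.33). The day 4 and day 6 calls kept their sides under all alternatives run, but the day 6 one rests on a single DMSO sample.

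Eomes was lower with auxin from day 1. It was at 3.78 and 1.39 CPM against 7.38 and 10.9 on day 1, 5.24 and 6.90 against 18.2 and 20.7 on day 2, and 10.6 and 12.2 against 26.6 and 30.4 on day 4. The differences were −1.77 ± 0.59, −1.68 ± 0.41, −1.31 ± 0.33 and, on day 6, −0.66 ± 0.42. The call on day 2 was lost without auxin replicate 1 or DMSO replicate 2, and that on day 4 with DESeq2 and without auxin replicate 1 or DMSO replicate 2. Hand1 had 9 reads with auxin and 35 with DMSO on day 6, a ratio of 0.195 (interval 0.0823 to 0.413), and its call was lost with DESeq2 and in the fit of the 2 groups alone. Tfap2a and Tfap2c were not called between the arms, and Tfap2c was at 22.2 and 32.7 CPM with auxin and 17.4 with DMSO on day 6.

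Genes with the most similar course were sought by Pearson's r of log2 CPM over the 11 RA group means, which share their 0 h and library composition. For Krt8 these were S100a11 (r = 0.987) and Tbc1d2b (0.985), for Krt18 Gfra3 (0.984) and Lats2 (0.974), for Krt19 Fam107b (0.985) and Prkab2 (0.983), and for Gata3 Slc22a23 (0.996) and Slc40a1 (0.991). For Hand1 they were Ugt1a7c (0.980) and Lypd3 (0.971), for Tfap2a Cacfd1 (0.941) and Fzd8 (0.931), and for Gata2 Clock (0.938) and Tubb4a (0.922). For Eomes they were Ring1 (0.922) and Zfyve9 (0.909). Among the 9 genes, Krt8 and Krt18 were closest (0.952). The r of Tfap2c with each of the others was below 0 (−0.575 to −0.140), and whether it differed from 0 was not tested.

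In mES cells kept in LIF, the same genes were read in SLAM-seq after loss of each subunit. Levels here are all reads, new and old, and only 5 of the 9 genes passed the filter in DPY30–mAID, 6 in RBBP5–FKBP and 7 in Kdm5a/b-dKO. Gata2 and Hand1 did not pass in any line, and Tfap2a passed in Kdm5a/b-dKO alone.

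Eomes and Krt8 were lower after DPY30 loss. Eomes stood at 23.5, 21.1 and 16.7 CPM at 0 h, 8.93, 10.7 and 17.8 at 8 h and 2.40, 4.48 and 5.03 at 24 h, and the 24 h libraries lay below all 0 h libraries. Its fold change was −2.35 ± 0.48 at 24 h. Krt8 stood at 39.0, 35.2 and 36.7 CPM at 0 h, 40.6, 41.0 and 34.3 at 8 h and 18.8, 11.9 and 14.7 at 24 h (−1.27 ± 0.27). These were the 2 genes called of the 5 at 24 h, where 13.2% of all genes were called. At 8 h edgeR and DESeq2 called 0, with 0 at an unadjusted p below 0.05, and 4.17% of all genes were called. At 2 h edgeR called 0 of the 5 genes and 0 of all genes, with 1 of the 5 at an unadjusted p below 0.05. The 2 h ratios of summed reads to 0 h were 0.284 (interval 0.132 to 0.563) for Krt19 and 0.604 (0.457 to 0.794) for Eomes. They were 1.05, 1.12 and 1.29 for Tfap2c, Krt8 and Krt18, with intervals that spanned 1.

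After RBBP5 loss the same pair was lower at 8 h and 24 h. Eomes was at 16.0, 11.01 and 21.4 CPM at 0 h, 1.13, 5.64 and 5.87 at 8 h (−1.90 ± 0.55) and 9.17, 5.61 and 3.83 at 24 h (−1.36 ± 0.52). Krt8 was at 22.6, 23.1 and 29.6 CPM at 0 h, 7.34, 14.1 and 8.58 at 8 h (−1.33 ± 0.45) and 3.49, 7.48 and 10.1 at 24 h (−1.84 ± 0.46). Eomes was called at 8 h (4.31% of all genes) and Krt8 at 24 h (3.48%). No 8 h or 24 h library overlapped those at 0 h for either gene, but both calls were lost when any one replicate number was left out. Krt18 was at 9.40, 11.01 and 3.32 CPM at 0 h and 0, 5.14 and 0 at 24 h (−2.18 ± 1.03), and was not called. At 2 h edgeR called 0 of 6 genes, with 0 at an unadjusted p below 0.05. The 2 h ratios to 0 h were 0.588 (interval 0.456 to 0.755) for Krt8, 0.552 (0.312 to 0.946) for Krt19 and 1.26 (1.12 to 1.42) for Tfap2c. For Eomes, Gata3 and Krt18 the intervals spanned 1.

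Between lines, the 8 h change of Krt8 differed by −1.38 ± 0.41 between RBBP5–FKBP and DPY30–mAID, which was called (2.91% of all genes). It was −0.53 and not called without multi-mapped reads, and the call was also lost without any one replicate number. DPY30 and RBBP5 were removed by different ligands.

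**Figure D3:**
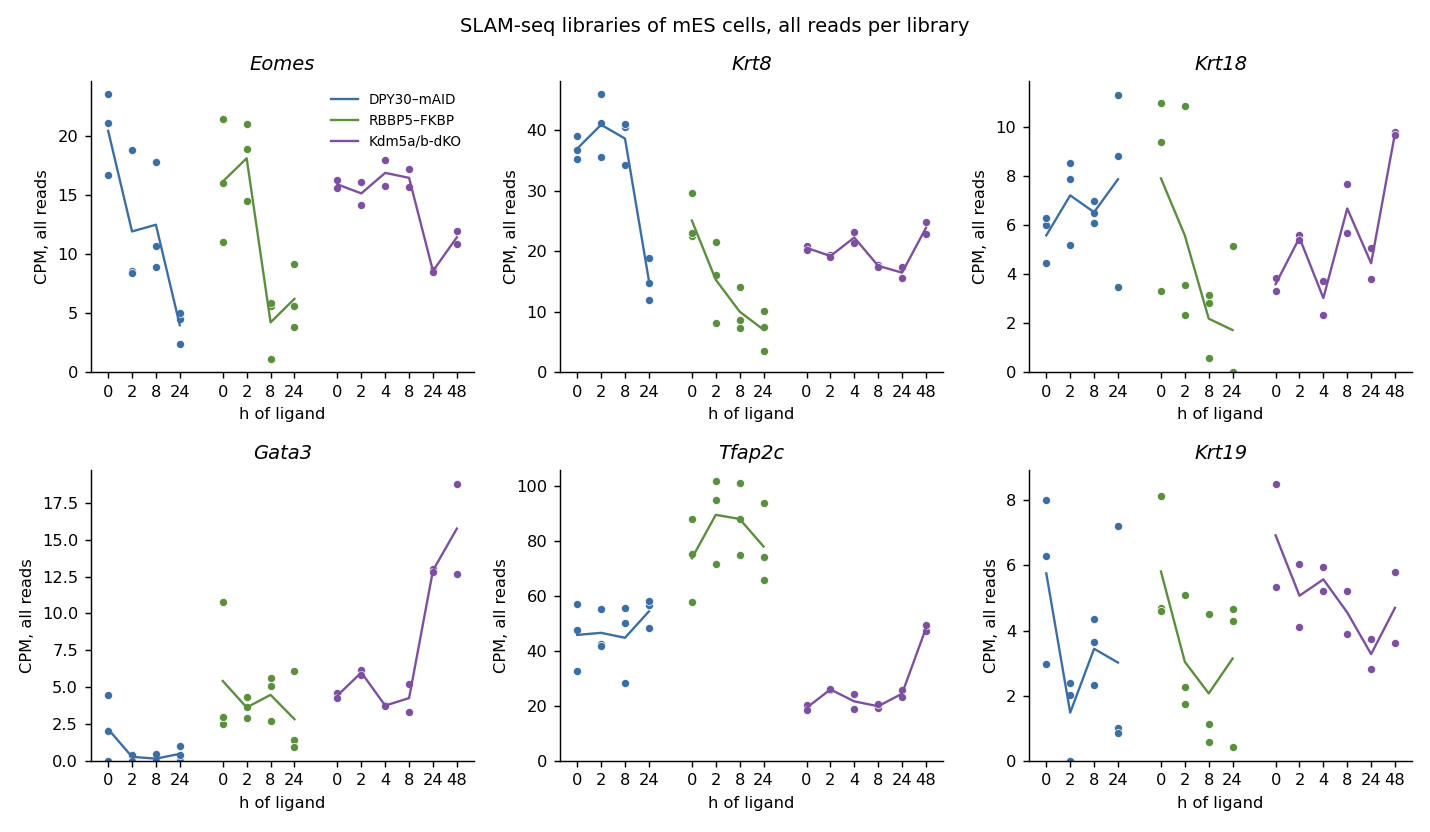
Each panel plots 1 gene as CPM of all reads against hours of ligand in the 3 lines, with a point for each library and a line through group means. Eomes and Krt8 were lower at 24 h in DPY30–mAID and RBBP5–FKBP cells, and Gata3 and Krt18 higher at 48 h in Kdm5a/b-dKO cells. Levels should be compared within a line, since read length differed.

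In Kdm5a/b-dKO cells Gata3, Tfap2c and Krt18 were higher after auxin. Gata3 stood at 4.60 and 4.26 CPM at 0 h, 3.29 and 5.23 at 8 h, 13.0 and 12.8 at 24 h and 12.7 and 18.8 at 48 h. Its fold change was 1.54 ± 0.26 at 24 h, where it was the 1 gene called of 7 (1.46% of all genes), and 1.83 ± 0.25 at 48 h. Tfap2c was at 20.2 and 18.4 CPM at 0 h, 25.8 and 26.2 at 2 h, 18.8 and 24.4 at 4 h, 19.1 and 20.6 at 8 h, 25.8 and 23.1 at 24 h and 47.1 and 49.3 at 48 h (1.32 ± 0.14). Krt18 was at 3.85 and 3.33 CPM at 0 h, 5.59 and 5.38 at 2 h, 2.31 and 3.74 at 4 h, 5.68 and 7.68 at 8 h, 3.82 and 5.07 at 24 h and 9.81 and 9.70 at 48 h (1.44 ± 0.28). These 3 genes were called at 48 h, where 2.42% of all genes were called.

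Krt8, Eomes and Krt19 were not called in these cells. Krt8 was at 20.9 and 20.2 CPM at 0 h, 17.4 and 15.5 at 24 h and 22.8 and 24.9 at 48 h, with fold changes of −0.32 ± 0.14 and 0.21 ± 0.13. Eomes was at 15.6 and 16.2 CPM at 0 h, 8.63 and 8.49 at 24 h (−0.89 ± 0.17) and 12.0 and 10.9 at 48 h (−0.48 ± 0.17). Krt19 was at 5.34 and 8.51 CPM at 0 h and 2.83 and 3.73 at 24 h (−1.09 ± 0.34), not called here but called under 4 alternatives and without 0 h replicate 1.

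The summed extraembryonic endoderm list stayed at 658 to 750 CPM at 0 h and 764 to 864 at 48 h in these cells, and 0 of its 15 tested genes were called by edgeR at 48 h. Of 13 tested trophoblast genes 2 were called lower at 48 h and none higher, where 0.781% of all genes were called lower. In DPY30–mAID at 24 h, 6 of 11 tested trophoblast genes and 7 of 23 epithelial genes were called lower and none higher, where 7.05% of all genes were called lower and 6.16% higher.

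The 24 h changes in Kdm5a/b-dKO and DPY30–mAID cells were also set against each other. Gata3 differed by 3.74 ± 1.26, but it had 16 reads in all in DPY30–mAID cells at 0 h. EdgeR called 0 of 7 genes in this difference, with 2 at an unadjusted p below 0.05 and 1 (Gata3) by DESeq2, where 4.47% of all genes were called by edgeR. At 0 h Tfap2c was lower in Kdm5a/b-dKO than in DPY30–mAID cells by −1.26 ± 0.25, a call in a contrast where 21.3% of all genes were called, with 9.86% lower and 11.4% higher. Clone and read length differ with the line here and cannot be told apart from the knockout.

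Newly made RNA could be followed for few of the genes. By T>C reads, Tfap2c passed the filter in each line, and Gata3 and Eomes in Kdm5a/b-dKO only. Tfap2c had 40, 16 and 36 T>C reads in DPY30–mAID at 0 h and 48, 37 and 38 at 24 h (0.46 ± 0.48). It was not called, with 0 also by DESeq2 and at an unadjusted p below 0.05 (3.5% of all genes called). In RBBP5–FKBP it had 35, 38 and 69 at 0 h and 10, 14 and 25 at 24 h (−1.28 ± 0.45), and was called (23.0% of all genes). All genes had a median of −0.91 in that contrast, and the call was lost when T>C reads set the scaling (−0.41), without the low-count filter, with the 2 groups alone and without any one replicate number. The level of Tfap2c over all reads did not follow, at 0.08 ± 0.21.

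In Kdm5a/b-dKO cells Tfap2c had 23 and 14 T>C reads at 0 h, 10 and 6 at 24 h and 22 and 32 at 48 h. Its fold changes were −1.16 ± 0.50 and 0.58 ± 0.41, against medians of −0.80 and −1.29 over all genes. Gata3 had 10 and 9 T>C reads at 0 h, 9 and 9 at 24 h and 9 and 19 at 48 h (−0.03 ± 0.59 and 0.59 ± 0.55). Eomes had 12 and 12 at 0 h, 6 and 6 at 24 h and 5 and 11 at 48 h (−0.94 ± 0.58 and −0.54 ± 0.55). EdgeR and DESeq2 called 0 of the 3 genes at 24 h and 48 h, with 1 and 0 at an unadjusted p below 0.05, where 27.2% and 64.7% of all genes were called. The Tfap2c value at 24 h was called with a replicate block, with a minimum of 20 reads and without 0 h replicate 2. When T>C reads set the scaling, which raises all genes by about their median fall, Gata3 (1.87) and Tfap2c (1.86) were called higher at 48 h. At 48 h the fold changes of all 3 genes lay above the median of all genes, as many genes do by definition. They rest on few T>C reads and nothing is read from this.

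The share of conversions differed among the genes before any ligand was added. In DPY30–mAID cells at 0 h, 1.81% of the T bases covered in Tfap2c reads were converted (95% exact interval 1.51 to 2.15), against 1.04% over all genes. Gata3 was at 1.74% (0.641 to 3.75) on 6 conversions, Eomes at 0.986% (0.651 to 1.43) and Krt8 at 0.474% (0.293 to 0.723). In RBBP5–FKBP cells Tfap2c was at 1.61% (1.38 to 1.85), Gata3 at 0.708% (0.230 to 1.64), Eomes at 0.537% (0.278 to 0.937) and Krt8 at 0 of 193 reads with a conversion, which allows up to 0.115% of T bases by the exact interval, against 0.589% over all genes. In Kdm5a/b-dKO cells Gata3 was at 3.18% (1.98 to 4.82), Tfap2c at 1.26% (0.919 to 1.69), Eomes at 1.15% (0.780 to 1.64), Krt8 at 0.403% (0.221 to 0.676) and all genes at 0.505%. Over all libraries 14673 Krt8 reads mapped to several places, where Krt8 had 2958 reads in SLAM-seq and 13836 in Quant-seq. Without multi-mapped reads Krt8 at 0 h was called lower in Kdm5a/b-dKO than in DPY30–mAID cells (−3.91). Its conversion share is therefore as uncertain as its level. Krt18 reads covered 2.23 to 4.06 T bases each, over a counted interval of 65 bases. Its exact intervals reached 2.66 to 2.86%, so that a difference from all genes was not detectable at this depth.

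**Figure D4:**
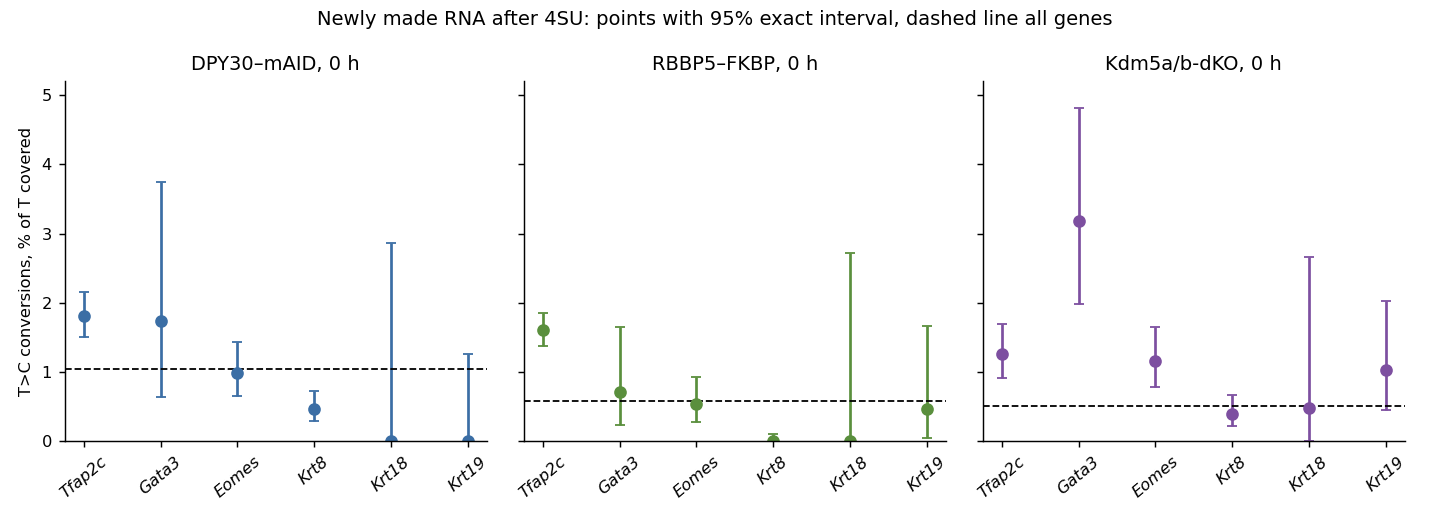
T>C conversions as a percentage of T bases covered at 0 h in each line, with points pooled over the libraries of the group, bars for the 95% exact counting interval and a dashed line for all genes. Tfap2c lay above the line of all genes in each line, and Krt8 below it in DPY30–mAID and RBBP5–FKBP. Most Krt8 reads over all libraries mapped to several places.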

How the data were processed

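SLAM-seq (36 samples) and Quant-seq (22 samples) of E14 mES cell lines gave the data. The deposited files hold raw counts of reads and of T>C reads per 3′ UTR interval. According to the file headers, the authors made these counts with SlamDunk (v0.3.4) on GRCm38/mm10. For Quant-seq the study's methods instead describe Trim Galore, HISAT2 (2.2.1) and featureCounts, but the deposited Quant-seq files carry the SlamDunk header and T>C columns, and were used as deposited. The submitters' processing notes also name bcl2fastq and cutadapt. Multi-mapped reads are in the counts.

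Here intervals were summed per gene (20177 genes). Each line and the RA course were fitted separately over all their groups with edgeR (4.0.16) in R (4.3.3), by TMM scaling and the quasi-likelihood test with Benjamini-Hochberg adjustment. Genes needed a mean of 10 reads in at least 1 group. T>C reads were scaled by the all-read libraries. A fit of all SLAM-seq lines gave differences between lines. DESeq2 (1.42.0), no or a stricter filter (20 reads), no TMM, the groups compared alone, uniquely mapped reads, a replicate block and leaving out libraries were alternatives. The scripts were tested on simulated data.

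All 9 genes were named throughout. Other names were drawn from Cdx2, Elf5, Krt7, Cdh1 and Epcam, the 3 tested genes of highest mean CPM in each of 9 marker lists, and the 2 genes nearest in course. Not all genes that this rule admits are printed, and Sparc and Foxd3 are among those left out. Col4a1, Krt5, Msx2 and others came in by that rule. The genes and lists were chosen with earlier results of these data known. Both DMSO day 6 libraries were identical and entered once, which left 57 libraries. Intervals on counts are 95% exact and, with depths of 1264241 to 7792404 reads and no molecular identifiers, cover counting error only. Replicates came from the labels. The genes with the course most similar to that of Tfap2c are not reported here.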

Additional observations from a re-analysis of the deposited data

Results flagged for a closer look

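Groups held 1 to 3 libraries, so that no group was large enough to be tested for a library standing apart. Other results stood out as follows.

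The difference between auxin and DMSO took both signs over the RA course for Gata2, Eomes, Tfap2c and Tfap2a, at times when the arms did not overlap. With 1 or 2 libraries an arm, arms can stand apart without a difference. The share of all genes that do so was not computed, so nothing is read from this. Gata2 was at 1.27 at 8 h, on 8 reads with auxin and 3 with DMSO, and at −0.72, 0.84, 2.03 and −2.24 on days 1, 2, 4 and 6 (log2, auxin against DMSO). Eomes was at 0.57 at 8 h and at −1.77, −1.68, −1.31 and −0.66 on days 1, 2, 4 and 6. Tfap2c was at −0.59 at 8 h and at 0.42, −0.12, 0.32 and 0.64 on days 1, 2, 4 and 6. Tfap2a was at 1.26 at 8 h, on 8 reads with auxin and 3 with DMSO, and at −0.48, −1.21 and −0.40 on days 2, 4 and 6. These differences between times were not tested, and DMSO day 6 is 1 library.

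The 8 h change of Krt8 differed between RBBP5–FKBP and DPY30–mAID cells by −1.38 in the fit of all lines. It is given as a description, since the gene was chosen with its reads known, and its call was lost without multi-mapped reads (−0.53) and without any one replicate number. At 8 h Krt18 was below 0 h in every RBBP5–FKBP library (−1.81) and above it in both Kdm5a/b-dKO libraries (0.89), and this difference was not tested.

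T>C reads were also present without 4SU. Gata3 had 15 among 1890 Quant-seq reads (0.794%) and Krt8 had 15 among 10683 (0.140%), against 0.346% over all genes.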

How the results depend on the processing

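Of 359 recomputed counts of called genes among the 9, 291 stayed within 1.5 times the first count and 68 did not. At an unadjusted p the counts became 2 (DMSO 8 h), 3 (auxin 8 h against 0 h), 3 and 5 (auxin against DMSO, days 1 and 4), 2 and 3 (RBBP5–FKBP, 8 h and 24 h), 2 (Kdm5a/b-dKO, 24 h) and 1 (its T>C reads), and 2 and 4 for the differences from DPY30–mAID in the dKO at 24 h and in RBBP5–FKBP at 8 h. With DESeq2 they became 0, 1 and 1 for auxin against DMSO on days 1, 4 and 6, 2 for RBBP5–FKBP at 8 h and 1 for the dKO difference at 24 h. Without the filter they became 0 (RBBP5–FKBP T>C), 2 (dKO, 24 h), 2 (auxin day 1), 1 (dKO difference) and 0 (RBBP5–FKBP difference), and with 20 reads 1 (dKO T>C, 24 h), 2 (dKO, 24 h), 0 (DMSO 8 h) and 1 (dKO difference). Without multi-mapped reads they became 0 for RBBP5–FKBP at 24 h, DMSO 8 h, auxin against DMSO on day 1 and the RBBP5–FKBP difference, 1 for auxin day 1 against 0 h and 2 for dKO against DPY30–mAID at 0 h. With the 2 groups alone they became 0 for RBBP5–FKBP at 8 h, its T>C reads and DMSO 8 h, 2 for DMSO day 1, 1 for auxin day 1 against 0 h and 1 for auxin against DMSO on day 6. T>C scaling, which raises all genes by about their median fall, gave 0 for RBBP5–FKBP and 2 for the dKO at 48 h, and no TMM gave 1 for the dKO difference.

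Leaving out a library gave 0 to 1 (DMSO 8 h), 2 to 5 (DMSO day 1), 0 to 2 (auxin 8 h against 0 h), 0 (auxin against DMSO day 1), 0 to 1 (day 2), 1 to 2 (day 4), 0 (RBBP5–FKBP at 8 h and 24 h, its T>C reads and its difference), 0 to 1 (dKO T>C, 24 h), 1 to 2 (dKO, 24 h) and 1 to 2 (dKO against DPY30–mAID, 0 h). With a replicate block the counts became 1 (dKO T>C, 24 h) and 2 (dKO, 24 h). Deviations of same-numbered samples had mean correlations of −0.0122 to 0.0534 per fit and single pairs of −0.263 to 0.436. As not every pair passed 0.1, the numbers were not taken as a pairing. Apart from fewer samples or genes tested, the cause of these changes was not tested. Genes of few reads (Hand1, Tfap2a, Krt18 and Krt19 early in RA) are limited by depth.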

Other observations

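The difference of neural and pluripotency genes between the arms varied with the day. On day 6 of RA, Sox2, a factor of pluripotent and neural cells, was higher with auxin by 1.51 ± 0.15. The 10 pluripotency genes had a median difference of 0.53 on day 6, but −0.40 on day 4 and −0.09 on day 2. Of 4 tested neural genes Tubb3, a neuronal tubulin, was higher on day 6 by 1.44 ± 0.43 and Map2, a neuronal microtubule protein, by 1.63 ± 0.49. The median of the 4 was 1.07 on day 6 and 0.06 on days 2 and 4. Of 3 tested neural crest genes Snai2, a repressor of E-cadherin, was higher on day 6 by 2.07 ± 0.66. Sox9, another of them, had at most 314 mean reads in a DMSO group and 127 in an auxin group. The median of the 3 was 0.59 on day 6, 0.10 on day 4 and 0.08 on day 2. The 6 tested mesoderm genes had a median difference of −0.01 on day 6, 0.19 on day 4 and 0.62 on day 2, but single genes went both ways. Hand2 had at most 31.5 mean reads in a DMSO group and 6 in an auxin group, and Msx1 198 and 282. Each day 6 comparison rests on 1 DMSO sample. Calls of single genes of these lists on days 2 and 4 are not given here.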
